A study of Mus musculus with 2 samples.

Results

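The genes described here are annotated antisense RNA genes with an open promoter in newborn mouse hindbrain. They were chosen by measured values, the authors' peaks: a gene entered when a peak of each of the 2 replicates lay within 500 bp of the same annotated start site. By this rule 1148 of 2959 genes of the antisense class in the GENCODE vM21 annotation (38.8%, 95% exact Clopper-Pearson interval 37 to 40.6) had an open promoter, beside 19350 of 55413 annotated genes of every class (34.9%). Because a peak was the criterion, that these promoters are open is a description. They were then divided by whether the start site of a protein-coding gene lay within 1 kb of an open antisense start site: 689 genes form the coding-proximal class (60%, interval 57.1 to 62.9) and 459 the coding-distal class (40%, interval 37.1 to 42.9). Intervals cover counting error only, and genes are not replicates.

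DNase-seq, which sequences the DNA ends that DNase I releases from chromatin not wrapped in nucleosomes, was done on hindbrain of B6NCrl mice at postnatal day 0. Both sexes were pooled, and the study holds 1 group with 2 biological replicates recorded under the same donor entry, with no second genotype, treatment or age. The number of animals behind a replicate is not stated, so the replicates may differ by technical spread alone.

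Antisense RNAs are long transcripts, mostly non-coding, read from the strand opposite a coding gene. Some begin head to head with the coding promoter and run away from it, others begin inside the coding gene and run back towards its start, and others begin far from any coding start. In mouse a few are well studied, such as Airn and Kcnq1ot1, which silence neighbouring imprinted genes on the paternal chromosome. DNase signal has no strand, so a peak near both an antisense and a coding start cannot be assigned to either transcript.

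Replicate 1 had 270757 peaks and replicate 2 had 171790 on the assembled nuclear chromosomes, and read depth is unknown because the tables hold regions and no reads. A gene without a peak was below the authors' calling threshold and is not shown to be closed. In a check of the tissue label, 15 of 16 hindbrain marker genes had an open promoter (all but Ptf1a), against 7 of 15 forebrain and midbrain markers and 3 of 16 blood, vessel and meningeal markers. Each peak carries a score from the authors, a whole number of at most 150 in replicate 1 and 147 in replicate 2. Its scaling is not stated, so it is used to rank and describe peaks within a list, and the scores of the replicates are not compared with each other in size.

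The promoters of 7 antisense genes show the range of settings. They are printed 5′ to 3′ on the strand of the antisense gene, from the RefSeq sequence of GRCm38.p6, the same build as the mm10 peak tables, and capitals mark the bases that the highest-scoring peaks of both replicates cover. The first 3 belong to the coding-proximal class and start head to head with Ccnt2, Rps13 and Irx3; the windows at Rps13 and Irx3 were shortened where the coding transcript begins.
2900009J06Rik: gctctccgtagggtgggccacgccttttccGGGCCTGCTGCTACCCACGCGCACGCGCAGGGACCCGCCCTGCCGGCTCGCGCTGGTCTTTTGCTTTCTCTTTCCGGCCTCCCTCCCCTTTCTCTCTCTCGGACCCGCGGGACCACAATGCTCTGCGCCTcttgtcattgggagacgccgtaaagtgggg
Gm44777: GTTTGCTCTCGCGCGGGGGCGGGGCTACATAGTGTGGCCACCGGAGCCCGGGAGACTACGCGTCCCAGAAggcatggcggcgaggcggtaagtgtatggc
Irx3os: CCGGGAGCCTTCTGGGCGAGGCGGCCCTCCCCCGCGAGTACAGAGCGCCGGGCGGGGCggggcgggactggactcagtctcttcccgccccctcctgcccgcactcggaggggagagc

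The window of 2900009J06Rik is chr1:127773946-127774135 on the minus strand, the antisense RNA starts at its base 44, and it holds 18 CpG dinucleotides in 190 bases. Ccnt2, which encodes a cyclin T subunit of the elongation kinase P-TEFb, starts 72 bp away from the antisense start, while the coding gene that the antisense RNA overlaps is Acmsd, an enzyme of tryptophan breakdown. The window of Gm44777 is chr7:116334196-116334295 on the plus strand, with the antisense start at base 60 and 11 CpG in 100 bases. Rps13, a ribosomal protein gene, starts 60 bp away. Irx3os is shown at chr8:91802068-91802185 on the plus strand, with the antisense start at base 108 and 13 CpG in 118 bases, and Irx3, an Iroquois homeobox gene, starts 108 bp away. All 3 windows hold GGGCGG on one strand or the other, the letters of a GC box that SP and KLF factors recognise.

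The other windows belong to the coding-distal class. They are the promoters of 3 RNAs at imprinted genes, all in introns of the coding gene, and of an RNA inside Msi1.
Kcnq1ot1: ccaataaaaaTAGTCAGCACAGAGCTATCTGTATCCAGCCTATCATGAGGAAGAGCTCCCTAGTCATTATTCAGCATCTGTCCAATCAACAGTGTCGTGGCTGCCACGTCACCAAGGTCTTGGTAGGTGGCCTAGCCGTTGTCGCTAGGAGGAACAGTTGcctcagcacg
Airn: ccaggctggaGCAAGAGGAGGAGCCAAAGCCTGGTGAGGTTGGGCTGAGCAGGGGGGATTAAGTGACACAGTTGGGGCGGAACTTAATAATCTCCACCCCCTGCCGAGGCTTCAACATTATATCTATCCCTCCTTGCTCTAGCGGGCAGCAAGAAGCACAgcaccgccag
Nespas: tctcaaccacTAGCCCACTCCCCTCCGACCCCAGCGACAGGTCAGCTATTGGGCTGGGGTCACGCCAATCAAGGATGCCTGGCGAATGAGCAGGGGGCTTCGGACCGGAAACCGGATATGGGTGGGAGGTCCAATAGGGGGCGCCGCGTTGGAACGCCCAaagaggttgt
4930430O22Rik: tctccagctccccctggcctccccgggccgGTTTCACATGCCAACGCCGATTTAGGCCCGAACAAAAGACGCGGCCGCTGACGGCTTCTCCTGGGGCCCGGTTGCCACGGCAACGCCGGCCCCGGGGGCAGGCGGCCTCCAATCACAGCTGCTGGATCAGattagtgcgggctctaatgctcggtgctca

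The window of Kcnq1ot1 is chr7:143296526-143296695 on the minus strand and that of Airn is chr17:12741226-12741395 on the plus strand. They hold 5 and 4 CpG in 170 bases, and the antisense RNAs start at bases 147 and 86. The window of Nespas, chr2:174295426-174295595 on the minus strand, holds 11 CpG in 170 bases and the antisense start at base 160. The window of 4930430O22Rik, chr5:115436526-115436715 on the minus strand, holds 17 CpG in 190 bases with the antisense start at base 72. The letters CCAAT, which NFY recognises, occur on one strand or the other in the windows of Kcnq1ot1, Nespas and 4930430O22Rik, as in that of 2900009J06Rik, and GGGCGG occurs in that of Airn. The capitals span 150 bases in the Kcnq1ot1, Airn and Nespas windows, where both replicates placed the same peak, and 130 bases in that of 4930430O22Rik.

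Taken as a whole class, antisense promoters were open more often than those of lincRNA genes and less often than coding ones, with intervals that did not overlap. The share was 38.8% for antisense genes, against 24.3% of 5854 lincRNA genes (interval 23.2 to 25.4), the long non-coding genes between coding genes, and 66.2% of 21938 protein-coding genes (interval 65.6 to 66.9). A further 258 antisense genes had a peak of replicate 1 only, 39 of replicate 2 only, and 1513 of neither. In 1 gene the replicates' peaks lay at different start sites. Taking any annotated start site, 697 of 946 antisense genes with a coding start within 1 kb were open (73.7%, interval 70.7 to 76.5), against 451 of 2013 without one (22.4%, interval 20.6 to 24.3). The interval of those without one overlapped that of all lincRNA genes, so the higher share of the whole class lay with genes near a coding start. There the 500 bp window can also hold the coding promoter's own peak. The counts of 697 and 451 differ from 689 and 459 because the 2 classes go by open start sites alone.

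Counting peaks at the annotated 5′ end of each gene alone, the share of open antisense 5′ ends was lower in each farther bin of distance to the nearest coding start, up to 2 kb. It was 83.3% of 221 genes at 0 to 100 bp, 77.3% of 216 at 101 to 250 bp and 72.8% of 202 at 251 to 500 bp. It was 57.5% of 252 genes at 501 to 1000 bp and 42.6% of 195 at 1001 to 2000 bp. Beyond that the share had no further trend, with 19.5% of 262 genes at 2001 to 5000 bp, 22.2% of 623 at 5001 to 20000 bp and 18.6% of 988 farther away. The intervals of the last 3 bins, which together run from 14.9 to 25.6%, overlapped one another and lay below those of all nearer bins. Close to a coding start the 500 bp window can hold the coding promoter's own peak. The shares of the nearer bins therefore do not separate the antisense start from the coding one.

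**Figure D1:**
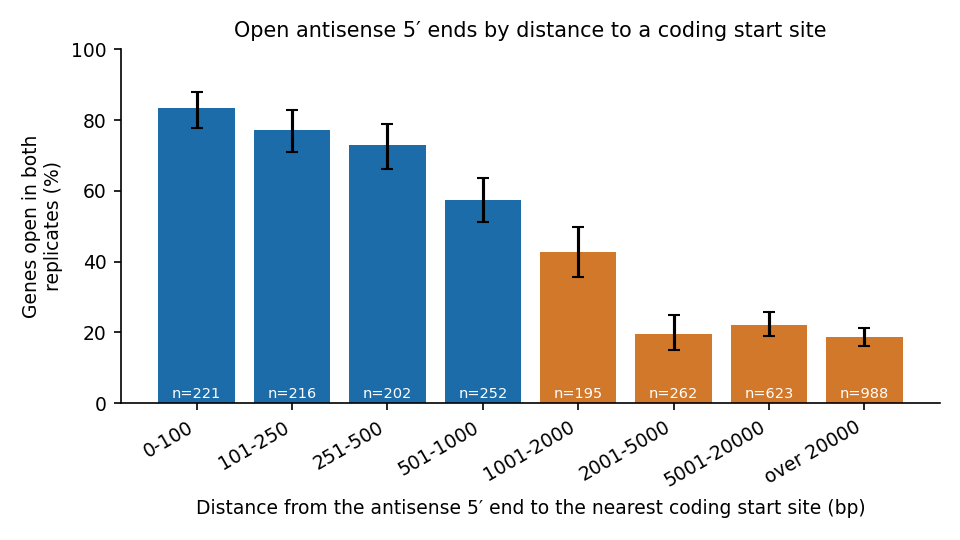
Percent of antisense genes with a peak of both replicates within 500 bp of the annotated 5′ end, by distance in bp from it to the nearest coding start; bars are shares, whiskers are 95% exact intervals, and n is the number of genes. The share is 83.3% in the nearest bin and 18.6% in the farthest, and close to a coding start the window can also hold the coding promoter's peak.

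To see how far the openness belongs to the start itself, the same 500 bp window was moved along each gene in steps of 1 kb. At the 5′ end of antisense genes with a coding start within 1 kb of it, 72.2% of 891 windows held peaks of both replicates. The share was 33.7% at 1 kb upstream and 45.1% at 1 kb downstream, and at 10 kb upstream and downstream it was 8.53% and 7.52%. At the 5′ end of the 2068 other antisense genes it was 22.1% (interval 20.3 to 23.9), with 10.8% at 1 kb upstream, 15.5% at 1 kb downstream, and 8.85% and 8.03% at 10 kb. LincRNA genes with no coding start within 1 kb stood at 19.4% of 5491 at the 5′ end (interval 18.3 to 20.4), 9.51% and 11% at 1 kb upstream and downstream, and 5.97% and 6.14% at 10 kb. Antisense genes without a coding start within 1 kb thus peaked at their own start. Their interval there overlapped that of lincRNA genes without one by a narrow margin, and at 10 kb on either side it lay above. Distances beyond 1 kb were not matched between these sets. The antisense set held 195 genes with a coding start at 1001 to 2000 bp, of which 42.6% were open.

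**Figure D2:**
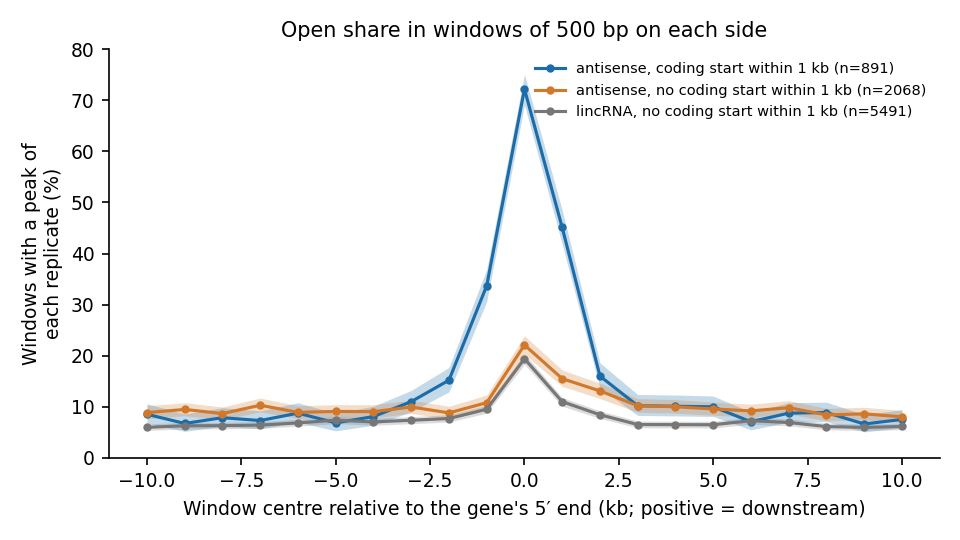
Percent of genes with a peak of both replicates within 500 bp of a point moved in steps of 1 kb from 10 kb upstream to 10 kb downstream of the 5′ end; lines are antisense genes with a coding start within 1 kb, antisense genes without one, and lincRNA genes without one, and bands are 95% exact intervals. The values at the 5′ end are 72.2%, 22.1% and 19.4%.

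CpG content, a sequence property that the peak criterion did not use, differed between the classes. The ratio of observed CpG to that expected from C and G content, over 500 bp on each side of the open start, had a median of 0.73 in the coding-proximal class (quartiles 0.56 and 0.83) and 0.32 in the coding-distal class (0.22 and 0.48). The coding start lay a median of 208 bp away in the coding-proximal class, so most of its CpG windows also held the coding start. The difference is therefore not independent of the split. A ratio of 0.6 or more, usual for CpG islands, was found at 488 coding-proximal starts (70.8%) and at 65 coding-distal ones (14.2%). With the classes divided at 500 bp from a coding start instead of 1 kb, the coding-distal share was 22.4%. Measured at the 5′ end for all genes alike, the median was 0.57 for open antisense genes, 0.23 for the 1811 other antisense genes, and 0.70 for open protein-coding genes. A ratio of at least 0.6 was found in 46.6%, 3.81% and 66.8% of these groups.

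Above a CpG ratio of 0.2, antisense genes with a coding start nearby were also open at the 5′ end more often within each range of CpG content, with intervals that did not overlap. Below 0.2, 15.2% of 66 antisense genes with a coding start within 1 kb of the 5′ end were open, against 10.6% of 763 without, and these intervals overlapped (7.51 to 26.1 and 8.52 to 13). From 0.2 to 0.4 the shares were 39.1% of 169 against 19.9% of 976, and from 0.4 to 0.6 they were 75.3% of 146 against 47.7% of 235. At 0.6 or more, 89.6% of 510 were open (interval 86.6 to 92.1), against 73.4% of 94 (interval 63.3 to 82). Protein-coding 5′ ends in the same 4 ranges were open in 5.57%, 27.3%, 76.9% and 95.6% of cases. At any CpG ratio, the 500 bp window of a gene near a coding start can hold the coding promoter's own peak. The higher shares of such genes therefore do not separate the antisense start from the coding one.

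**Figure D3:**
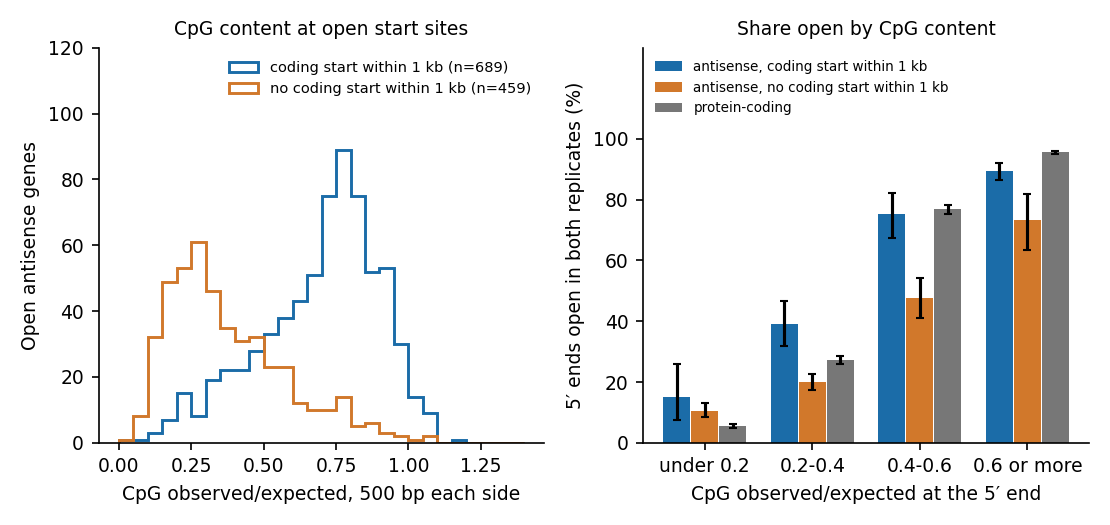
Left, histogram of the ratio of observed to expected CpG within 500 bp of the open start of each antisense gene, by class; right, percent of 5′ ends open in 4 ranges of this ratio, for antisense genes with and without a coding start within 1 kb and for protein-coding genes, with 95% exact intervals. The coding-proximal median is 0.73 and the coding-distal median 0.32.

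Peaks at the coding-proximal starts scored higher than those at the coding-distal ones in both replicates. The highest-scoring peak at a start had a median score of 119 in replicate 1 and 94 in replicate 2 in the coding-proximal class, with ranges of 25 to 148 and 17 to 143. In the coding-distal class the medians were 79 and 56, with ranges of 20 to 149 and 17 to 130. Open protein-coding promoters had medians of 129 and 109, taken at the start that scored highest in replicate 1. On the percentile of the score within its own list, averaged over the replicates, 409 coding-proximal genes (59.4%) and 100 coding-distal genes (21.8%) stood at 90 or above. The hotspots, the authors' broader regions, were wider at coding-proximal starts, with medians of 1258 and 1156 bp in replicates 1 and 2, against 497 and 422 bp at coding-distal starts.

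Among antisense genes open in both replicates, the replicates ranked the promoters alike. The 258 and 39 genes with a peak of replicate 1 or replicate 2 only are not in this comparison. Across the 1148 genes Spearman's rho of the scores was 0.952, given as a description since the peaks share libraries, and it was 0.945 within the coding-proximal class and 0.933 within the coding-distal class. The highest-scoring peaks overlapped in 1019 genes (88.8%).

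**Figure D4:**
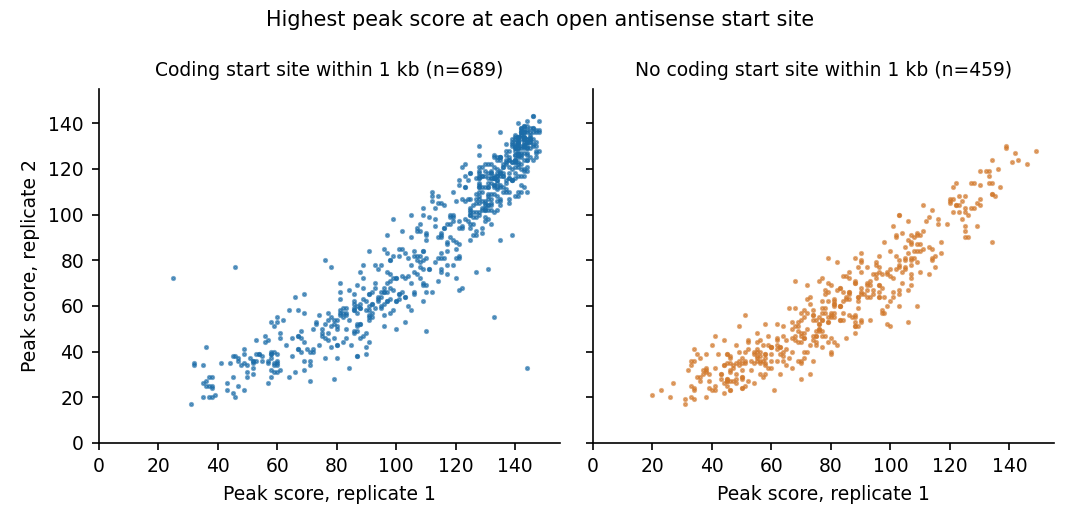
Authors' peak score (no stated unit) in replicate 2 against replicate 1 for the highest-scoring peak at each of the 1148 open antisense promoters, with the coding-proximal class on the left and the coding-distal class on the right. Ranks agreed, with Spearman's rho of 0.945 and 0.933, and the coding-proximal points reach 148 and 143.

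In the coding-proximal class the antisense start faced the coding start in 1 of 2 main ways. In 303 genes (44%) the starts were divergent, that is head to head, at a median distance of 113 bp (quartiles 66 and 208). In 384 genes (55.7%) the antisense RNA started inside the coding gene, downstream of the coding start, at a median distance of 360 bp (quartiles 179 and 584). This division goes by the nearest coding start alone. A divergent start can therefore also lie in the coding gene, upstream of an internal start, as Gm38562 does in an intron of Gabrb1. The remaining 2 lay on the strand of the near coding gene and were chosen for naming after their values were seen: Gm38304, 12 bp from Pigc, with scores of 138 and 124, and Gm12981, 852 bp from Sesn2, with 116 and 104. For 547 of the 689 (79.4%) the near coding gene was one that the antisense RNA overlaps.

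In the divergent pairs 1 hotspot covered both starts in 90.8% and 85.8% of the 303 genes in replicates 1 and 2. The highest-scoring peak also lay within 500 bp of the coding start in 277 and 278 genes (91.4% and 91.7%), which the short distance between the starts and the 500 bp criterion largely fix. The peak centre fell between the starts in 54.1% and 53.1%, and it was nearer to the antisense start in 47.5% and 52.1%. Its median position was 57.5 and 59.5 bp upstream of the antisense start (offsets of -57.5 and -59.5 bp). Median scores were 129 and 107, and the median CpG ratio was 0.75.

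Where the antisense RNA started inside the coding gene, at a longer distance, 1 hotspot covered both starts in 74.7% and 66.1% of 384 genes. The highest-scoring peak lay within 500 bp of the coding start in 303 genes in each replicate (78.9%), and with unequal distances these shares are not compared with those of the divergent pairs. The peak centre had a median position of 175 bp downstream of the antisense start, towards the coding start, in both replicates. Median scores were 107 and 78, and the median CpG ratio was 0.71. In the coding-distal class the median offset was -37.5 and -35.5 bp, just upstream of the antisense start, and the start lay inside the peak in 32.5% and 30.3% of genes.

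**Figure D5:**
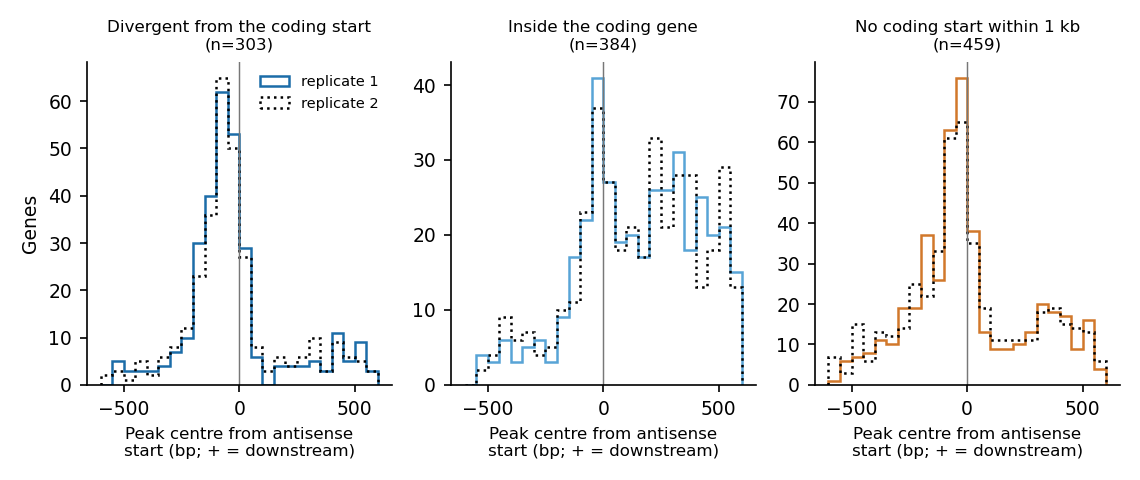
Number of genes by distance in bp from the antisense start to the centre of the highest-scoring peak, negative upstream and positive downstream, for divergent, inside-gene and coding-distal starts, with replicate 1 as solid and replicate 2 as dotted lines. The medians of replicate 1 are -57.5, 175 and -37.5 bp.

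The 10 coding-proximal promoters that ranked highest each had a mean percentile of at least 99.8 in the authors' lists. Gm14966 had scores of 148 and 141 in replicates 1 and 2 and started 40 bp inside Sf1, which encodes a splicing factor that binds the branch point. 1700055D18Rik, 418 bp from the zinc finger gene Zbtb5, and Gm7008, 431 bp inside the transcriptional coregulator gene Ifrd1, both had 146 and 143. Gm4419 had 148 and 137, at 113 bp inside Ywhaq, a 14-3-3 protein gene. Gm14966 overlaps the kinase gene Map4k2 as well as Sf1.

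Both cyclin T genes had an antisense start among the 10. 2900009J06Rik, shown above, had 146 and 138 at Ccnt2, and 9330020H09Rik, which overlaps Ccnt1 and starts 312 bp inside it, had 147 and 136. The highest-scoring peaks of 9330020H09Rik were centred 526.5 and 546.5 bp downstream of its start, beyond the Ccnt1 start. Peak centres also lay beyond the coding start in both replicates at Gm7008 (572.5 and 552.5 bp) and Gm4419 (427.5 and 387.5 bp), and at no other of the 10. Gm42884 had 146 and 138, 377 bp inside Clip2, which encodes a microtubule-binding linker. 1700016H03Rik had 147 and 137, 85 bp from Btrc, which encodes a substrate receptor of a ubiquitin ligase, and overlapped no coding gene. Gm15559 had 148 and 136, 232 bp from the chromatin remodeller gene Ep400, and overlaps Pus1, a pseudouridine synthase gene. Gm17435 had 145 and 138, 320 bp from the solute carrier gene Slc35e1, and overlaps Med26, a Mediator subunit gene. Lowest by mean percentile were AC132402.1 in Slc15a3 with 37 and 20, Gm11131 in the MHC gene H2-Q4 with 35 and 20, and Gm10550 in Thap4 with 31 and 17, all 675 to 822 bp from the coding start.

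Coding-distal promoters were mostly intronic, a description without the same shares for antisense genes that were not open, so it is not a trait particular to open ones. The open start lay in an intron of an opposite-strand coding gene in 253 of 459 genes (55.1%) and in an exon in 58 (12.6%). In 46 (10%) it lay within 1 kb of such a gene's 3′ end, a class assigned first, so it can hold exonic and intronic starts. In 102 (22.2%) it lay outside opposite-strand coding genes, and coding genes on the antisense gene's own strand were not looked at. Median scores in replicates 1 and 2 were 75 and 51 for intronic starts, 89.5 and 58.5 for exonic ones, 79 and 59.5 at 3′ ends and 90.5 and 70.5 outside. Median CpG ratios in the same order were 0.27, 0.52, 0.40 and 0.35. The nearest coding start was a median of 14371 bp away (quartiles 4294 and 41776), and 194 genes (42.3%) had none within 20000 bp.

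Of the 459, 429 overlapped a coding gene on the opposite strand, and that gene's own promoter was open in 377 (87.9%, interval 84.4 to 90.8). Among antisense genes that had no open promoter and no coding start within 1 kb it was open in 1212 of 1445 (83.9%, interval 81.9 to 85.7), so the intervals overlapped. The antisense promoter scored above the coding one in 55 of the 377 in replicate 1 (14.6%) and in 64 in replicate 2 (17%). Both coding scores were taken at the coding start that scored highest in replicate 1, so a higher replicate 2 score elsewhere was not used. In 52 genes the antisense promoter was open and that of the overlapped coding gene was not. A coding promoter counted as open at any annotated start of the gene, whereas the classes go by starts of protein-coding transcripts alone. With the starts of all transcripts of coding genes, 733 genes in place of 689 were coding-proximal. The same peak can thus count for both promoters in some coding-distal genes, and these were not counted.

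The 10 coding-distal promoters that ranked highest by mean percentile of score lay at genes of varied roles. 1700113A16Rik, which overlaps the neuronal transcription factor gene Mef2d and starts outside it, 35213 bp from its start, had scores of 149 and 128 and the highest mean percentile of its class, 99.3. 4930430O22Rik, shown above, in an intron of Msi1, which encodes an RNA-binding protein of neural progenitors, had 142 and 127. A830082K12Rik, 2227 bp from the orphan nuclear receptor gene Nr2f1, had 133 and 119. Zmiz1os1 had 143 and 124 at Zmiz1, a transcriptional coregulator gene, and Rab10os had 134 and 124 at Rab10, which encodes a GTPase of vesicle traffic.

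A030001D20Rik, near the 3′ end of Rasip1, a Ras-interacting protein gene, had 139 and 130. Gm12758 had 139 and 129 and overlaps 4931406P16Rik. Gm15287 had 146 and 122 and overlapped no coding gene. Gm26670 had 141 and 123 and overlaps Rd3, a photoreceptor gene, and Frmd8os had 136 and 120 at Frmd8. Lowest by mean percentile were Gm12531, with 23 and 23, and A730032A03Rik, which overlaps Wfdc5, with 26 and 20. Below them was Gm12256, in an exon of Zfp39, with 20 and 21.

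At the edge of the distance limit, the farther of the replicates' peaks lay 497 bp from the start of 1700019L13Rik, Gm10631 and Gm28294, which were included. It lay 503 bp from Gm29682 and Gm4793 and 505 bp from AC125101.1, which were not.

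Open start sites in both classes were found in 29 genes, counted as coding-proximal. Gm44777 had scores of 143 and 130 at its start 60 bp from that of Rps13, and 65 and 47 at a start 1809 bp away. Irx3os had 115 and 91 at its start 108 bp from that of Irx3, and 56 and 39 at a start 1500 bp away. Panct2 had 90 and 48 at 50 bp, and 52 and 34 at 1045 bp. Over the 29 genes, the highest score was at a start within 1 kb of a coding start in both replicates in 14, at a farther start in both in 3, equal in 8 and without a common order in 4. The 3 were 6530437J22Rik, with 136 and 118 at 2648 bp against 58 and 29 at 503 bp, BC028777, with 115 and 103 at 3039 bp against 79 and 52 at 670 bp, and D030055H07Rik, with 101 and 80 at 8563 bp against 88 and 59 at 910 bp. Junos, at the immediate early gene Jun, had the same 128 and 116 at 729 and at 1018 bp. More than 1 open start site was annotated in 294 of the 1148 genes.

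The overlapped coding genes were then compared with 6 lists of genes by function, set beside the 38.8% of all antisense genes that were open. At Hox genes, which set position along the hindbrain, 5 of 8 antisense genes were open (62.5%, interval 24.5 to 91.5). Gm15050 at the 3′ end of Hoxa3 had scores of 130 and 107, and Hoxd3os1, in an intron 4203 bp from the start of Hoxd3, had 113 and 86. Gm11536 in Hoxb3 had 78 and 67, and Hoxb3os, at the 3′ end of a Hoxb gene and 3060 bp from the start of Hoxb2, had 93 and 54. Of these 5, 1 had a coding start within 1 kb. Of the other 3, the farther of the replicates' nearest peaks lay 841 bp from Hoxaas3, 1736 bp from Hoxb5os and over 5000 bp from Gm29430.

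At neural transcription factor genes 30 of 80 antisense genes were open (37.5%, interval 26.9 to 49), near the background share, with 13 coding-proximal and 17 coding-distal. Beyond 1700113A16Rik and A830082K12Rik, Gm47061, in an exon of the neural crest factor gene Tfap2a, had scores of 132 and 119. Zfhx2os and Gm20687, which both overlap the zinc finger homeobox gene Zfhx2 and start outside it, had 130 and 119, and 126 and 100. Gm2164, 362 bp inside the POU factor gene Pou3f1, had 132 and 105. Prox1os, 384 bp inside Prox1, a homeobox gene of differentiating neurons, had 125 and 94, and A730035I17Rik at Prdm8 had 125 and 93 with a CpG ratio of 0.97.

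At imprinted genes 5 of 10 antisense genes were open (50%, interval 18.7 to 81.3). Kcnq1ot1 (chr7:143203458-143296549, minus strand), in an intron of the potassium channel gene Kcnq1, had scores of 128 and 114. Nespas (chr2:174281237-174295436, minus strand), in an intron of Gnas, which encodes a G protein alpha subunit, had 127 and 103. Airn (chr17:12741311-12860136, plus strand), in an intron of the receptor gene Igf2r and 28353 bp from its start, had 93 and 64. Those 3 lacked a coding start within 1 kb. Igf2os, 204 bp from Igf2, a growth factor gene, had 79 and 28, and Gm44732, 413 bp inside the cell cycle inhibitor gene Cdkn1c, had 57 and 36. The peak tables do not separate the parental alleles, so which copy was open was not measured.

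At genes of synapses and excitability 18 of 50 antisense genes were open (36%, interval 22.9 to 50.8). Gm45441, which overlaps the NMDA receptor gene Grin2d but starts 49 bp inside Grwd1, had the highest scores, 128 and 117. 2310026I22Rik, 71 bp inside the kinase gene Camk4, had 115 and 90. Gm26653, 64 bp inside the NMDA receptor gene Grin2b, had 101 and 65. A830092H15Rik at Nlgn1, a postsynaptic adhesion gene, had 97 and 70, and Gm47423 in Ntrk2, which encodes the BDNF receptor, had 96 and 66. Gm10848 in the calcium channel subunit gene Cacnb2 had 94 and 74, and Gm38562 in the GABA receptor gene Gabrb1 had 89 and 78.

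At axon guidance and signalling genes 14 of 29 antisense genes were open (48.3%, interval 29.4 to 67.5). The count goes by overlap, so it includes antisense genes that start at another coding gene, such as Gm10584 and Gm15677. Gm10584, which overlaps Fgfr2 and Chst15 but starts 1050 bp inside Chst15, had scores of 135 and 108. Gm15688, 117 bp inside the netrin receptor gene Unc5c, had 133 and 101. Gm29083 in the semaphorin receptor gene Nrp2 had 117 and 88, Gm11915 in the ephrin receptor gene Epha7 had 108 and 81, and Gm48162, 58 bp from the retinoic acid receptor gene Rarb, had 107 and 74. Gm7628 in the plexin gene Plxnb1 had 100 and 62. Gm15677, which overlaps Fgfr2 and Cpxm2 but starts 568 bp inside Cpxm2, had 91 and 65. 9530036O11Rik, 475722 bp long and the longest of these, starts 272 bp inside Shh, which encodes Sonic hedgehog, and had 88 and 61.

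At cell cycle and DNA repair genes 3 of 8 were open (37.5%, interval 8.52 to 75.5). Gm16794, which overlaps Atr and Xrn1 and starts 110 bp from Xrn1, an exonuclease gene, had scores of 137 and 126. 1700065D16Rik, 165 bp inside the checkpoint kinase gene Atr, had 131 and 109, and Gm42529 in an intron of the repair gene Brca2 had 40 and 23. In all 6 lists the interval contained 38.8%.

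Short motifs were counted in the 150 bp on each side of the open start, on both strands, beside all 132629 annotated start sites. GGGCGG, the SP and KLF letters, was in 56.2% of coding-proximal windows and 20% of coding-distal windows, against 10.6% of the 5′ ends of antisense genes that were not open and 30.7% of all start sites. TATAAA, the TATA box, was in 3.77% and 10.9%, against 12.8% and 11.8%. CAGCTG, an E-box that basic helix-loop-helix factors bind, was in 16.7% and 25.5%, against 20.1% and 17.3%. CCAAT, the NFY letters, was in 29.3% and 33.8%, against 32.2% and 34.4%. CCGGAAGT of ETS factors was in 4.64% and 1.31%, against 1.16% and 3.24%. TGACGTCA, the cAMP response element, was in 1.89% and 1.09%, against 0.828% and 1.43%.

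The 3 other motifs were rarer still in most of the groups. GCGCATGCG of NRF1 was in 2.32% and 0.871%, against 0.387% and 1.23%. AAGATGGCG of YY1 was in 1.6% and 0.436%, against 0.166% and 1.67%. TCTCGCGAG of ZBTB33 was in 0.581% and 0.218%, against 0.0552% and 0.527%. The shares of the 6 motifs that contain CG, some of them from few windows, were higher at coding-proximal starts, which also have the higher CpG content, and the part of base composition in these shares was not tested. A match is no evidence that a factor was bound.

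Gene structure was set side by side as well. Open and other antisense genes overlapped a coding gene on the opposite strand in 92.6% and 92.1% of cases. The median gene length was 5628 bp in the coding-proximal class and 6689 bp in the coding-distal class, against 5489 bp for antisense genes that were not open, with median exon numbers of 2, 3 and 3. More than 1 coding gene was overlapped by 145 of the open genes, and 85 overlapped none.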

How the data were processed

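DNase-seq peaks and hotspots of 2 replicates were used. According to the file list that the authors deposited, each library was called on its own from filtered mm10 alignments. Caller, threshold and aligner: not given in the sources used here. The value that the authors deposited per peak is a score of unstated scaling, and per hotspot a −log10 q of 1.3 to 100, a cap.

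Peaks on the mitochondrial chromosome and unplaced scaffolds (393 and 212) were left out, and the remaining peaks were compared with all annotated transcript starts of GENCODE vM21 using Python 3.11.15, numpy 2.4.6 and scipy 1.17.1, tested on simulated data. A gene was open when peaks of both replicates lay within 500 bp of the same start. A start's score is that of the highest-scoring peak in reach. A peak near several starts counts for each. Coding starts within 1 kb came from the protein-coding transcripts of coding genes.

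Members and lists were chosen with earlier results of these data known. Named genes are, per class, the 10 highest and 3 lowest by mean percentile of score, up to 8 per list, the 3 on each side of the distance limit, examples open in both classes, and those said to be chosen after their values were seen; a few that this rule names are not reported here. No p-value was computed. Alternatives were other windows, single replicates, stricter scores, hotspots, other coding distances, start sets and CpG windows.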

Additional observations from a re-analysis of the deposited data

How the results depend on the processing

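Of all the alternatives tried, none moved the number of open antisense genes by 1.5 times: it was 1148, and 1188 to 1407 with either replicate left out. The coding-proximal share, 60%, was 56.7% with windows of 1000 bp, 53.5% to 59.2% without a replicate, 64.1% with scores at or above the list median, 48.7% and 66% with coding starts within 500 bp and 2 kb, and 63.9% with all transcripts of coding genes. The coding-distal share with a CpG ratio of at least 0.6, 14.2%, was 10.9% with windows of 1000 bp, 10.7% to 13.8% without a replicate, 22.4% and 11% with coding starts within 500 bp and 2 kb, and 18.5% with the ratio over 250 bp. The coding-proximal share, 70.8%, was 66.3%, 75.3% and 67% with windows of 1000 bp and coding starts within 500 bp and 2 kb. GGGCGG, in 41.7% of open starts, was in 45.4% and 37.2% with windows of 250 and 1000 bp, 38% to 40.8% without a replicate, and 45.3% with scores at or above the median. The cause was not tested. The count at percentile 90 or above, 509, ran from 362 to 650 and list members, 75, reached 99 without replicate 2, all within 1.5 times. The intronic share moved by less than its interval. Hotspots give no percentile of score, since most are tied at the cap. No paired analysis was possible because there is 1 group. Read depth is unknown, so weak promoters may be missed.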
